A study of Arabidopsis thaliana with 33 samples.

Results

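The loci described here are those whose transcripts were higher in Arabidopsis Col-0 rosettes 1 hr after an irradiance increase, while 3.5 and 25 hr after it they lay close to the plants left in low light. They number 24 of the 27826 loci on the array. From the start of day 25 after sowing the plants stood either in HL, high light with 550 μmol m-2 s-1, or in LL, the low light of 100 μmol m-2 s-1 in which all of them had been raised. Col-0 was measured at 1, 3.5 and 25 hr in both lights, and also in LL at -23 hr, which is 1 day earlier at the same hour of the day as the 1 hr samples. The accessions Ga-0 and Ts-1 were measured in HL and LL at 1 hr. Each of the 11 groups has 3 arrays, and each array holds RNA of 3 complete rosettes that were pooled. The 3 accessions are natural inbred lines, with no transgene or mutation named in the labels.

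A plant moved from dim to bright light takes in more energy than photosynthesis can use, and its leaves also warm up. Transcripts of chaperones and of their regulators are among the first to respond, together with those of stress transcription factors. Many such genes are also under the control of the circadian clock and of the hour of the day, so a response to light is read against plants sampled at the same hour.

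Values are log2 differences in array signal. The deposited numbers keep the digits of the normalized signal without the decimal separator, so each value was placed at the power of 10 that gives the smallest difference within a group and then between groups. A difference beyond 3.16-fold, or 1.66 on the log2 scale, is therefore misplaced, and levels of different genes cannot be compared. A locus was taken when Col-0 HL minus LL was 0.6 to 1.5 at 1 hr and within -0.25 to 0.25 at 3.5 and at 25 hr, with all 3 HL arrays above all 3 LL arrays at 1 hr. The loci were thus chosen by Col-0 values, which are given as a description without a test. The tests below use the Ga-0 and Ts-1 arrays, which had no part in the choice.

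Of 360 loci with a Col-0 change of 0.6 to 1.5 at 1 hr, 339 had separated arrays. Among those, 123 lay within the window at 3.5 hr and 70 within it at 25 hr, and 24, or 7.08%, lay within it at both. The changes of the 24 loci at 1 hr ran from 0.61 to 0.98 with a median of 0.69, which is 1.52- to 1.97-fold with a median of 1.61-fold. The limits cut through a continuous range. AT1G73890, at 0.608, and AT3G09440, at 0.611, were just inside the low limit, while PBP1, at 0.5998, and JAL22, at 0.597, were just outside. At 3.5 hr AT4G17250 (-0.247) and AT1G23710 (-0.244) were inside and EPR1 (-0.255) and AT2G18680 (-0.256) outside. At 25 hr AT4G22740 (0.234) and AT5G46490 (0.223) were inside and AT4G02410 (0.251) and AT2G27660 (0.252) outside. A further 7 loci met every limit but had overlapping arrays at 1 hr, and 1 had a change above 1.5.

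The proteins of 11 of the loci carry a name in the annotation and 13 are known there by locus code only. SGT1A (AT4G23570) is a co-chaperone that works with HSP90, HSP81-3 (AT5G56010) is a cytosolic HSP90 and HSFB2A (AT5G62020) is a heat stress transcription factor of class B. ZAT6 (AT5G04340) is a C2H2 zinc finger transcription factor and NF-YA7 (AT1G30500) a subunit of the CCAAT-binding factor NF-Y. MGD3 (AT2G11810, listed in the annotation as MGDC) makes the galactolipid monogalactosyldiacylglycerol and is known from phosphate-starved plants, and PHO2 (AT2G33770) is a ubiquitin-conjugating enzyme that restrains phosphate uptake. BI1 (AT5G47120) is the Bax inhibitor of the endoplasmic reticulum, which restrains cell death, and ABCI21 (AT5G44110) belongs to the ATP-binding cassette proteins. RHS13 (AT4G02270) was named as a root hair specific gene and RCI3 (AT1G05260) is a peroxidase. Of the loci without a symbol, AT2G27580 encodes a protein of a zinc finger family.

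SGT1A had the largest change at 1 hr. Its 3 Col-0 arrays read 0.96, 0.94 and 1.04 in HL, against 0.07, -0.00 and -0.06 in LL, relative to the LL mean at 1 hr, which is the zero of every level given here. The HL arrays lay close together and far above LL. HSP81-3 read 0.64, 0.54 and 0.66 in HL and 0.05, -0.15 and 0.10 in LL. HSFB2A read 0.65, 0.61 and 0.79 in HL and -0.03, -0.17 and 0.20 in LL. These 3 loci thus had narrow HL groups, with SDs of 0.05, 0.07 and 0.09 (n = 3 each). Near-identical copies of the cytosolic HSP90 can share probes, so the HSP81-3 value is less certain for this locus alone.

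ZAT6 read 0.73, 1.02 and 1.00 in HL, against -0.05, -0.11 and 0.15 in LL. NF-YA7 read 0.58, 0.69 and 0.83 in HL, against -0.12, -0.16 and 0.28 in LL. Both factors were separated, NF-YA7 by a gap to its highest LL array that was smaller than the spread of the LL arrays. MGD3 read 0.65, 0.91 and 0.57 in HL, against 0.00, -0.13 and 0.12 in LL. PHO2 read 0.63, 0.55 and 0.68 in HL, against 0.00, 0.16 and -0.16 in LL. The loci of phosphate and galactolipid metabolism differed by 0.71 (MGD3) and 0.62 (PHO2), beside 0.61 for HSP81-3 and 0.68 for HSFB2A. These values chose the loci, so their likeness in size is partly set by the limits. BI1 read 0.71, 0.51 and 0.70 in HL, against -0.06, 0.02 and 0.04 in LL.

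Among the loci without a symbol, AT2G27580 was highest. It read 0.78, 1.03 and 0.84 in HL, against -0.04, -0.06 and 0.10 in LL. AT4G15420 read 0.78, 0.75 and 0.81 in HL, against -0.02, 0.08 and -0.06 in LL. AT1G55530 had the narrowest HL group, with 0.76, 0.71 and 0.75, against 0.02, -0.06 and 0.04 in LL. The other 10 loci known by code had changes of 0.61 to 0.75. In whole rosettes, more cells of a type and more RNA per cell cannot be told apart.

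**Figure D1:**
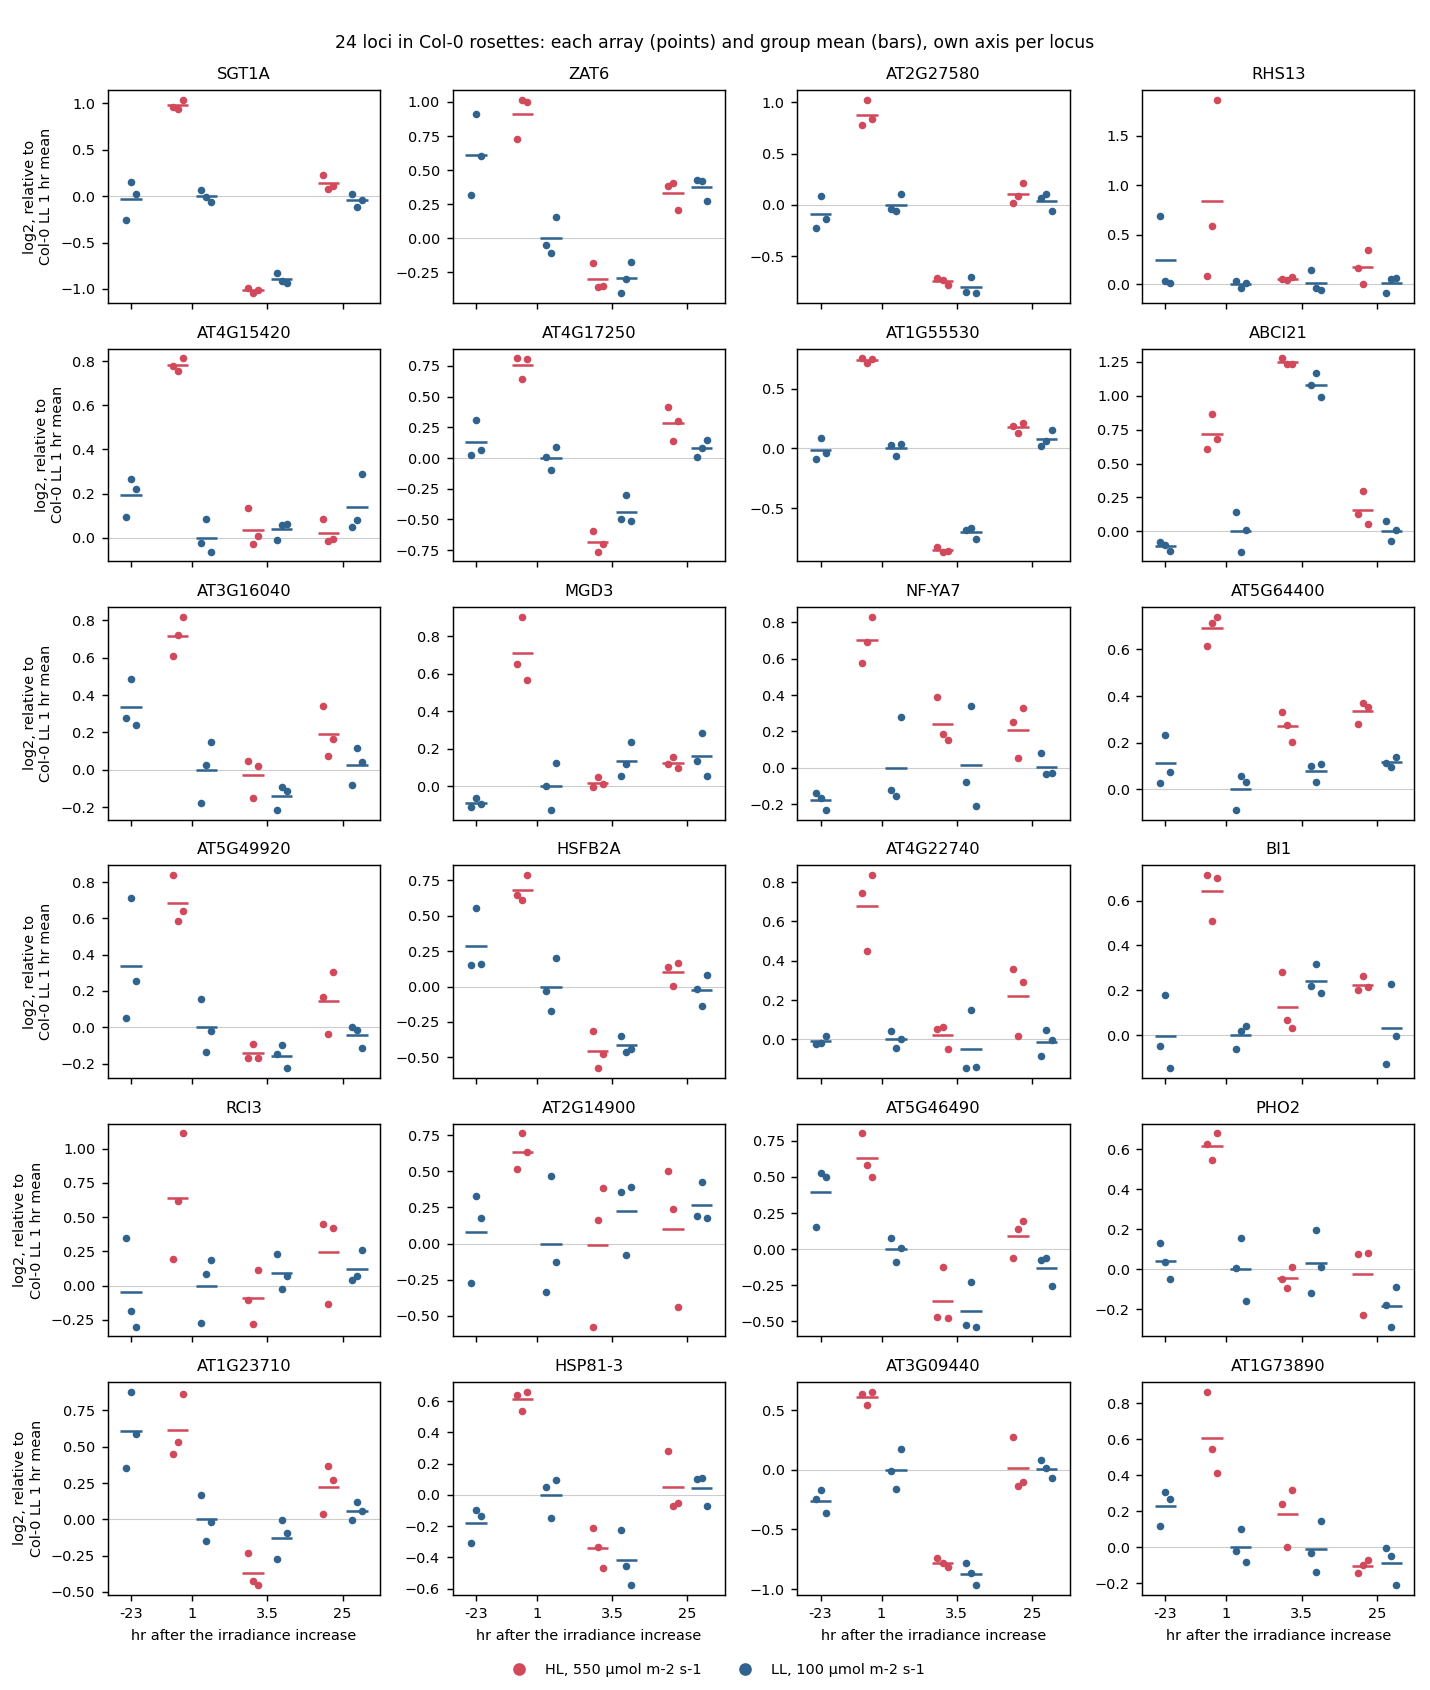
Each panel plots 1 of the 24 loci in Col-0, with hours after the irradiance increase on the x axis and log2 signal relative to the Col-0 LL mean at 1 hr on the y axis, each panel with its own scale. Points are arrays (HL in red to the left of LL in blue, LL only at -23 hr) and bars are means of 3 arrays. At 1 hr every HL array lies above every LL array, which the choice of loci fixes, while the levels at 3.5 hr differ widely between loci.

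RHS13 and RCI3 had the most widely spread HL arrays at 1 hr, with SDs of 0.92 and 0.46, against at most 0.23 in the other loci. RHS13 read 0.08, 0.59 and 1.86 in HL, against 0.03, -0.04 and 0.01 in LL. RCI3 read 0.19, 0.62 and 1.11 in HL, against -0.27, 0.08 and 0.19 in LL, and its lowest HL array (0.192) was barely above its highest LL array (0.189). The same array, replicate 3 of HL at 1 hr, was the highest for both. The value of RHS13 there, 1.86, spans more than the placing limit from the LL mean and rests on the other arrays of its group. Over 18 other loci of a list of root hair specific genes, drawn up after these values were seen, the mean level in HL was -0.01, -0.03 and -0.03, against 0.01, -0.05 and 0.04 in LL. On replicate 3 of HL 9 of these 18 loci lay above the LL mean, so the list as a whole was not higher on that array. Without that array 7 of the 24 loci were no longer chosen. The change was then 0.33 in RHS13, 0.41 in RCI3 and 0.49 in AT1G23710, while AT4G22740 (0.597), HSP81-3 (0.590), AT3G09440 (0.589) and PHO2 (0.588) fell just short of the low limit. Without replicate 2 of HL the RHS13 arrays were placed differently and its change was -0.69, so its sign, and its value of 0.84 over all arrays, rest on the placing of 1 array.

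**Figure D2:**
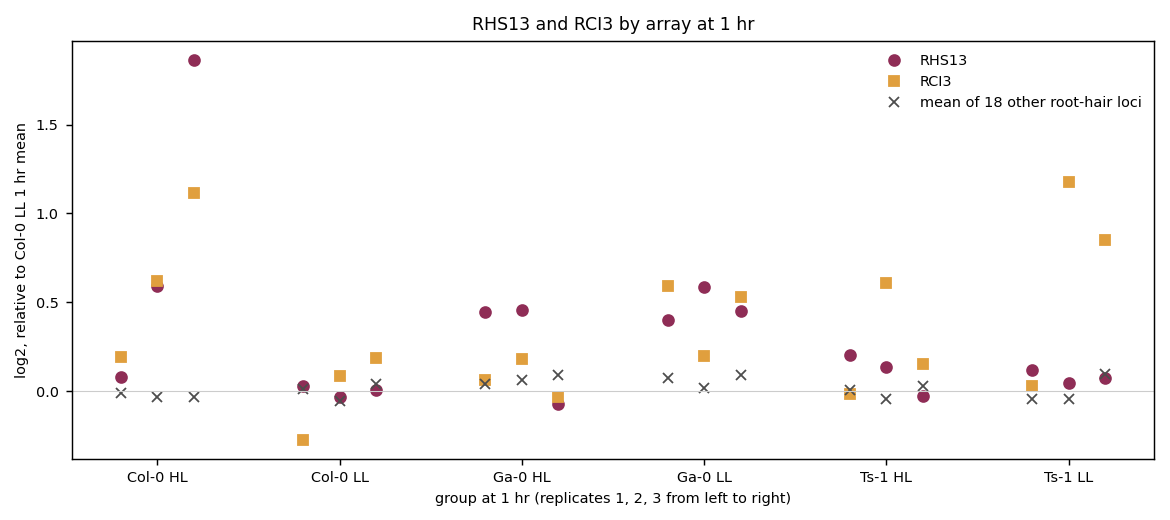
Log2 levels of RHS13 (circles), RCI3 (squares) and the mean of 18 other root hair loci (crosses) on the arrays of 6 groups at 1 hr, relative to the Col-0 LL mean. Replicate 3 of Col-0 HL carries the highest RHS13 value, 1.86, and a high RCI3 value, 1.11, while the crosses lie between -0.05 and 0.10 in every group.

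More widely, 9 of the 24 loci were chosen again whichever of the 18 Col-0 HL and LL arrays at 1, 3.5 and 25 hr was left out. These were SGT1A, ZAT6, AT2G27580, AT4G15420, AT1G55530, ABCI21, AT3G16040, MGD3 and AT5G64400. AT2G14900 was the least stable, chosen again in 11 of the 18. Its SD ran from 0.12 in Col-0 HL at 1 hr up to 0.84 in Ts-1 LL, and its LL arrays at 1 hr read -0.34, 0.47 and -0.13 in Col-0.

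A return to the LL level at 3.5 hr took different forms. For 14 of the 24 loci the LL mean at 3.5 hr was within 0.25 of the LL mean at 1 hr. In 12 of these HL at 3.5 hr was also within 0.25 of that mean, the exceptions being AT1G23710 (-0.37) and AT5G64400 (0.27). MGD3 was one of them, with 0.00, 0.05 and 0.01 in HL at 3.5 hr, against 0.06, 0.12 and 0.24 in LL. PHO2 was another, with -0.05, -0.09 and 0.01 in HL, against -0.12, 0.20 and 0.01 in LL. The HL groups of both at 3.5 hr lay near the LL level of 1 hr, and the HL arrays of MGD3 were all below its LL arrays.

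For 9 loci LL itself was lower at 3.5 hr than at 1 hr, with all 3 later arrays below all 3 earlier ones. SGT1A read -0.99, -1.05 and -1.01 in HL at 3.5 hr, against -0.83, -0.92 and -0.93 in LL. AT2G27580 read -0.71, -0.73 and -0.78 in HL, against -0.85, -0.71 and -0.86 in LL. Both HL groups thus lay well below even the LL level of 1 hr. AT3G09440 read -0.74, -0.78 and -0.82 in HL and -0.78, -0.87 and -0.97 in LL, and AT1G55530 averaged -0.85 in HL and -0.70 in LL. The LL means of the remaining loci were -0.44 (AT4G17250), -0.43 (AT5G46490), -0.42 (HSP81-3), -0.42 (HSFB2A) and -0.29 (ZAT6). SGT1A, HSP81-3 and HSFB2A were all in this set. Of all loci, 31.7% had LL arrays at 3.5 hr that all lay on 1 side of those at 1 hr, against 11 of these 24 (45.8%). Among the 315 other loci that met the Col-0 limits at 1 hr but not both windows, 55.2% did. All LL arrays were lower at 3.5 hr for 34.3% of the 315, against 37.5% of the 24. The LL arrays at 1 hr helped to choose the 24 and the 315.

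ABCI21 went the other way. Its LL arrays at 3.5 hr read 1.08, 1.17 and 0.99, and its HL arrays 1.28, 1.24 and 1.24. The HL level at 3.5 hr was above that of 1 hr, where the arrays read 0.61, 0.87 and 0.68, so this locus was not transient in level but LL had drawn level with HL. It was the only one of the 24 whose HL mean was higher at 3.5 than at 1 hr. BI1 was the other locus with all LL arrays higher at 3.5 than at 1 hr, by 0.24 on average.

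**Figure D3:**
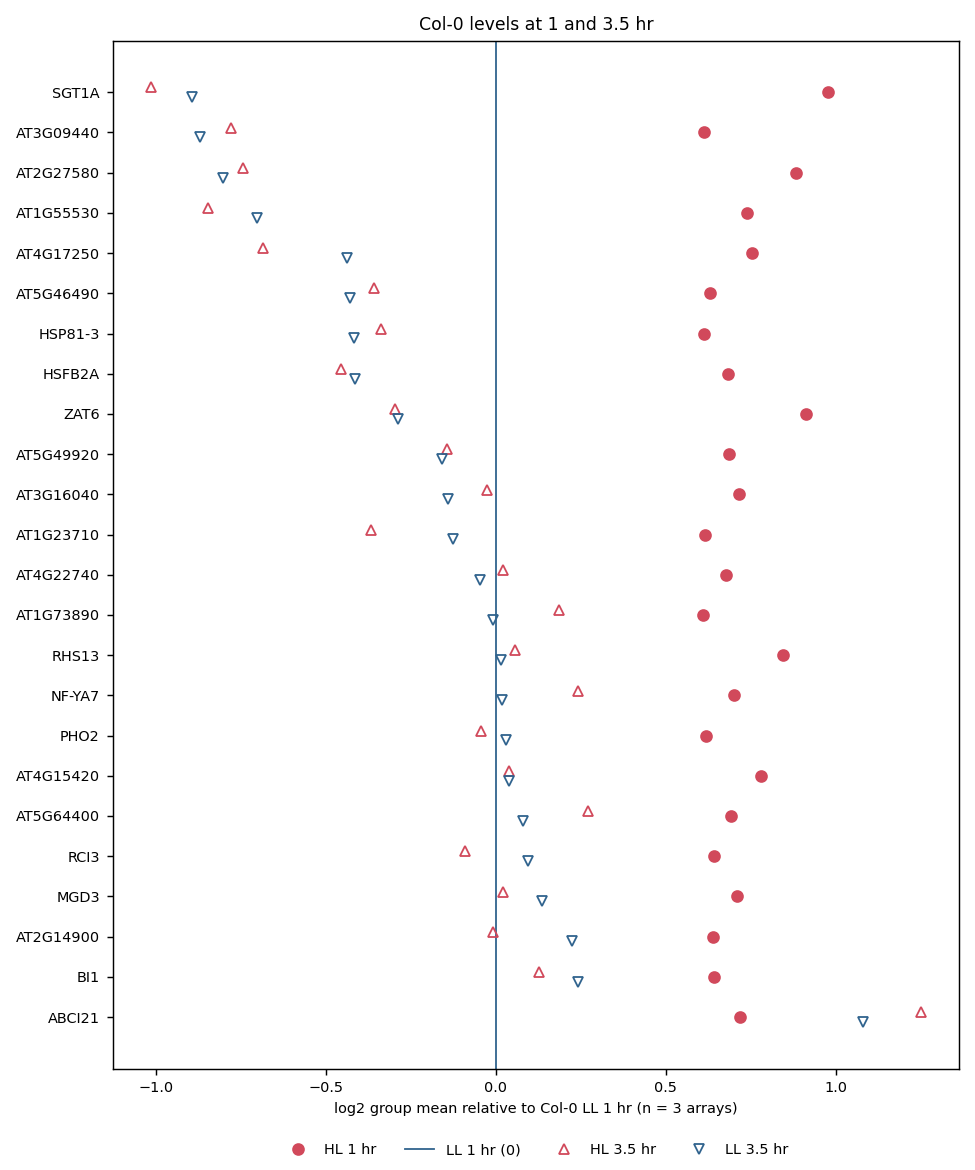
Col-0 group means of 3 arrays for the 24 loci, on the log2 scale relative to LL at 1 hr (vertical line at 0), ordered by the LL mean at 3.5 hr. Filled circles are HL at 1 hr, upward triangles HL at 3.5 hr and downward triangles LL at 3.5 hr. The triangles of a locus lie near each other, from -1.02 in HL and -0.89 in LL for SGT1A to 1.25 in HL and 1.08 in LL for ABCI21.

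At 3.5 hr the HL and LL arrays overlapped for 18 of the 24 loci. Of the 315 other loci that met the Col-0 limits at 1 hr but not both windows, 37.5% overlapped. The windows that chose the 24 favour such overlap, so the counts at 3.5 and 25 hr are a description. HL lay above LL in every array for ABCI21 and AT5G64400, and below it for SGT1A, AT4G17250, AT1G55530 and MGD3, with differences all inside the window. At 25 hr the HL and LL arrays overlapped for 21 of the 24, against 17.8% of the 315 other loci. The exceptions were SGT1A, with 0.22, 0.08 and 0.11 in HL against 0.03, -0.11 and -0.04 in LL, AT5G64400 and AT5G46490, each higher in HL. The differences at 25 hr were above 0 for 19 of the 24 loci, with a median of 0.16, against a median of -0.01 over all loci. Thus the window at 25 hr was filled mostly on its upper side, a description of values that chose the loci. LL at 25 hr lay within 0.25 of LL at 1 hr for 22 of the loci, the exceptions being ZAT6 (0.38) and AT2G14900 (0.27).

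The LL group at -23 hr took no part in the choice. All 3 HL arrays at 1 hr lay above all 3 LL arrays at -23 hr for 18 of the 24 loci (75%), against 11.7% of all loci. Of the 315 other loci that met the Col-0 limits at 1 hr, 82.9% did, so the share of the 24 was lower. This count shares its HL arrays with the choice. SGT1A read -0.26, 0.16 and 0.02 at -23 hr, and MGD3 read -0.11, -0.06 and -0.10, so the HL arrays at 1 hr were as far above the day before as above LL of the same day. ZAT6 was unlike these, with 0.31, 0.91 and 0.60 at -23 hr, which overlapped its HL arrays at 1 hr. AT1G23710, with 0.35, 0.88 and 0.59 at -23 hr, against 0.45, 0.54 and 0.86 in HL at 1 hr, was at the same level in both. The others that overlapped were RHS13, AT5G49920, RCI3 and AT5G46490. For AT1G23710 LL at -23 hr was above LL at 1 hr by 0.61, about as far as HL was (0.62), while for ZAT6 it was above by 0.61 and HL by 0.91.

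The Ga-0 and Ts-1 arrays show whether these loci responded in other accessions. A locus was called when limma gave a Benjamini-Hochberg adjusted p below 0.05 over all 27826 loci and a change above 1.4-fold, or 0.49 on the log2 scale. Of the 24, 14 rose in Ga-0, where 1.25% of all loci were called up, and 10 rose in Ts-1, where 1.47% were. In both accessions 9 rose, against 0.589% of all loci, and 15 rose in at least 1 of them. None was called down by limma, against 0.974% of all loci in Ga-0 and 0.938% in Ts-1, and at an unadjusted p under 0.05 the number lower in HL was also 0 in each. The 24 loci had a median change of 0.51 in Ga-0, while that of Ts-1 was 0.34, and over all loci both medians were -0.00. All HL arrays lay above all LL arrays for 16 of the 24 in each accession, against 7.76% of all loci in Ga-0 and 9.28% in Ts-1. The change was above 0 in both accessions for 19 of the 24, against 28.7% of all loci. The 315 other loci that met the Col-0 limits at 1 hr but not both windows were also counted. Called up were 54.0% of them in Ga-0, 39.7% in Ts-1 and 27.9% in both, against 58.3%, 41.7% and 37.5% of the 24. On the other measures the 24 were about equal or lower. Separated arrays with HL higher were found for 67.6% (Ga-0) and 65.7% (Ts-1) of the 315, beside 66.7% of the 24 each time. A change above 0 in both accessions was found for 82.9% of the 315 and 79.2% of the 24. Median changes of the 315 were 0.55 (Ga-0) and 0.43 (Ts-1), higher than those of the 24.

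**Figure D4:**
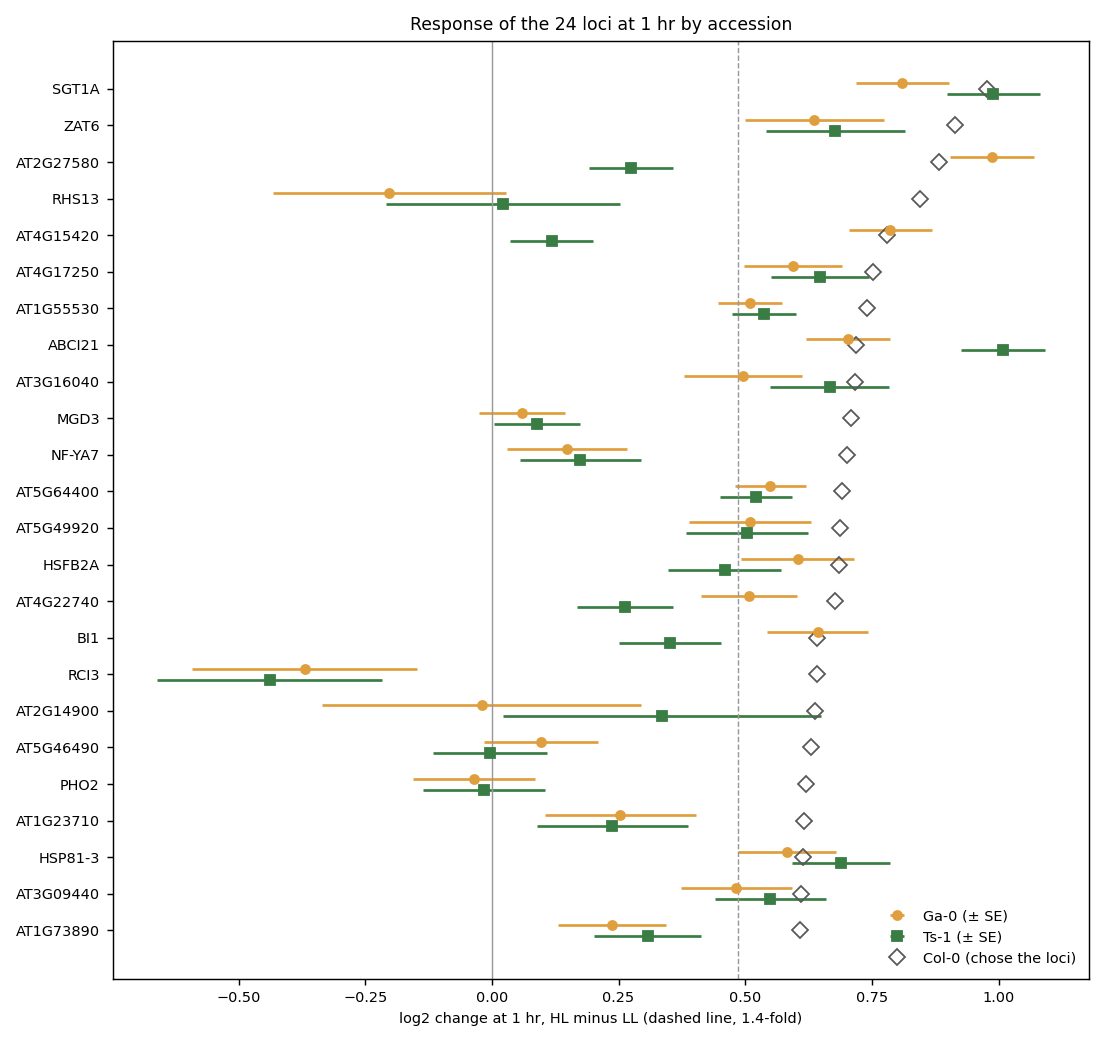
Log2 change at 1 hr, HL minus LL, for the 24 loci in Ga-0 (circles) and Ts-1 (squares), with bars of ± 1 SE from the limma fit (3 HL and 3 LL arrays each), and in Col-0 (open diamonds, which chose the loci). The dashed line marks 1.4-fold. Loci such as SGT1A lie to the right of it in every accession, while MGD3, PHO2 and AT5G46490 lie near 0 in Ga-0 and Ts-1.

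The 9 that rose in both were SGT1A, ABCI21, HSP81-3, ZAT6, AT4G17250, AT5G64400, AT1G55530, AT5G49920 and AT3G16040. SGT1A read 0.98, 1.07 and 1.01 in Ga-0 HL, against 0.27, 0.40 and -0.03 in Ga-0 LL. In Ts-1 it read 0.60, 0.72 and 0.66 in HL, against -0.19, -0.48 and -0.32 in LL. The arrays were separated in both accessions. Ga-0 rose by 0.81 ± 0.09 (SE, limma adjusted p = 2.38e-07), and the rise of Ts-1 was 0.99 ± 0.09 (adjusted p = 4.20e-09).

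In Ga-0 ABCI21 rose by 0.70 ± 0.08 (SE, limma adjusted p = 5.05e-07), and in Ts-1 the rise was 1.01 ± 0.08 (adjusted p = 3.82e-10). It did so from a low level, with Ga-0 LL arrays at -1.35, -1.18 and -1.22 and Ts-1 LL arrays at -1.38, -1.37 and -1.44. Those differences from Col-0 are close to the placing limit, and unequal match of the probes to each accession was not tested. For HSP81-3 the rise of Ga-0 was 0.58 ± 0.10 (limma adjusted p = 1.21e-04) and that of Ts-1 was 0.69 ± 0.10 (adjusted p = 8.30e-06). The stress factor ZAT6 had a rise of 0.64 ± 0.14 in Ga-0 (limma adjusted p = 0.00284), while Ts-1 reached 0.68 ± 0.14 (adjusted p = 0.00128). Its Ga-0 HL arrays, at 1.34, 0.63 and 1.14, were widely spread, and without replicate 1 of Ga-0 HL the change was 0.48, just under the limit.

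Of the loci without a symbol, AT4G17250 rose by 0.59 in Ga-0 and by 0.65 in Ts-1. AT5G64400 rose by 0.55 in Ga-0, against 0.52 in Ts-1, and AT1G55530 by 0.51 in Ga-0, against 0.54 in Ts-1. AT3G16040 rose by 0.49 ± 0.12 (SE) in Ga-0, against 0.67 ± 0.12 in Ts-1, and AT5G49920 by 0.51 ± 0.12 in Ga-0, against 0.50 ± 0.12 in Ts-1. Several of these stood close to the fold limit, and their calls depended on single arrays. In Ga-0 AT1G55530 was at 0.46 without LL replicate 1. AT3G16040 was at 0.42, 0.45 and 0.43 without HL replicate 1, HL replicate 2 and LL replicate 3. AT5G49920 was at 0.39 without HL replicate 3 and 0.45 without LL replicate 3. In Ts-1 AT5G49920 was at 0.43 without HL replicate 1 and 0.46 without LL replicate 1, and AT5G64400 at 0.47 without HL replicate 2.

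A further 5 loci rose in Ga-0 and missed the call in Ts-1. HSFB2A rose by 0.60 ± 0.11 in Ga-0 (SE, limma adjusted p = 4.89e-04), and in Ts-1, at 0.46 ± 0.11 (adjusted p = 0.00782), it missed only the fold limit. BI1 rose by 0.64 ± 0.10 in Ga-0 (limma adjusted p = 4.72e-05), while its Ts-1 value was 0.35 ± 0.10 (adjusted p = 0.0278). The values of AT4G22740 were 0.51 in Ga-0 and 0.26 in Ts-1 (limma adjusted p = 5.63e-04 and 0.105). For these 3 loci the difference between the accessions was not past the limit (limma adjusted p = 0.873, 0.587 and 0.661). AT3G09440 was the converse, called in Ts-1 at 0.55 ± 0.11 and not in Ga-0 at 0.48 ± 0.11 (limma adjusted p = 0.00474), with separated arrays in both. Without 1 array these calls moved across the limit. AT4G22740 in Ga-0 was at 0.47 without HL replicate 1, 0.47 without HL replicate 2 and 0.46 without LL replicate 2. AT3G09440 in Ts-1 was at 0.39 without LL replicate 2, and in Ga-0 it was at 0.51 without HL replicate 1 and 0.56 without LL replicate 2. HSFB2A in Ts-1 was at 0.51 without HL replicate 2, 0.54 without LL replicate 1 and 0.50 without LL replicate 3.

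The remaining 2 of the 5, AT2G27580 and AT4G15420, differed between Ga-0 and Ts-1 in the interaction itself, which 0.298% of all loci did. AT2G27580 read 0.55, 0.42 and 0.58 in Ga-0 HL, against -0.48, -0.35 and -0.58 in Ga-0 LL. In Ts-1 it read -0.66, -0.59 and -0.71 in HL, against -0.95, -0.85 and -0.997 in LL. The arrays were separated in both accessions, by 0.99 on average in Ga-0 but only 0.28 in Ts-1. The Ga-0 response exceeded that of Ts-1 by 0.71 ± 0.12 (SE, limma adjusted p = 0.00113, 95% confidence interval 0.47 to 0.95).

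AT4G15420 read 0.68, 0.67 and 1.00 in Ga-0 HL, against -0.00, 0.04 and -0.05 in Ga-0 LL. In Ts-1 it read -0.05, -0.02 and -0.10 in HL, against -0.17, -0.31 and -0.04 in LL, which overlapped. The response was larger in Ga-0 by 0.67 ± 0.12 (SE, limma adjusted p = 0.00227, interval 0.43 to 0.90). With only the arrays of Ga-0 and Ts-1 in the fit the adjusted p was 0.0892. In Col-0, which that test does not compare, both loci had changes close to those of Ga-0, at 0.88 for AT2G27580 and 0.78 for AT4G15420.

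**Figure D5:**
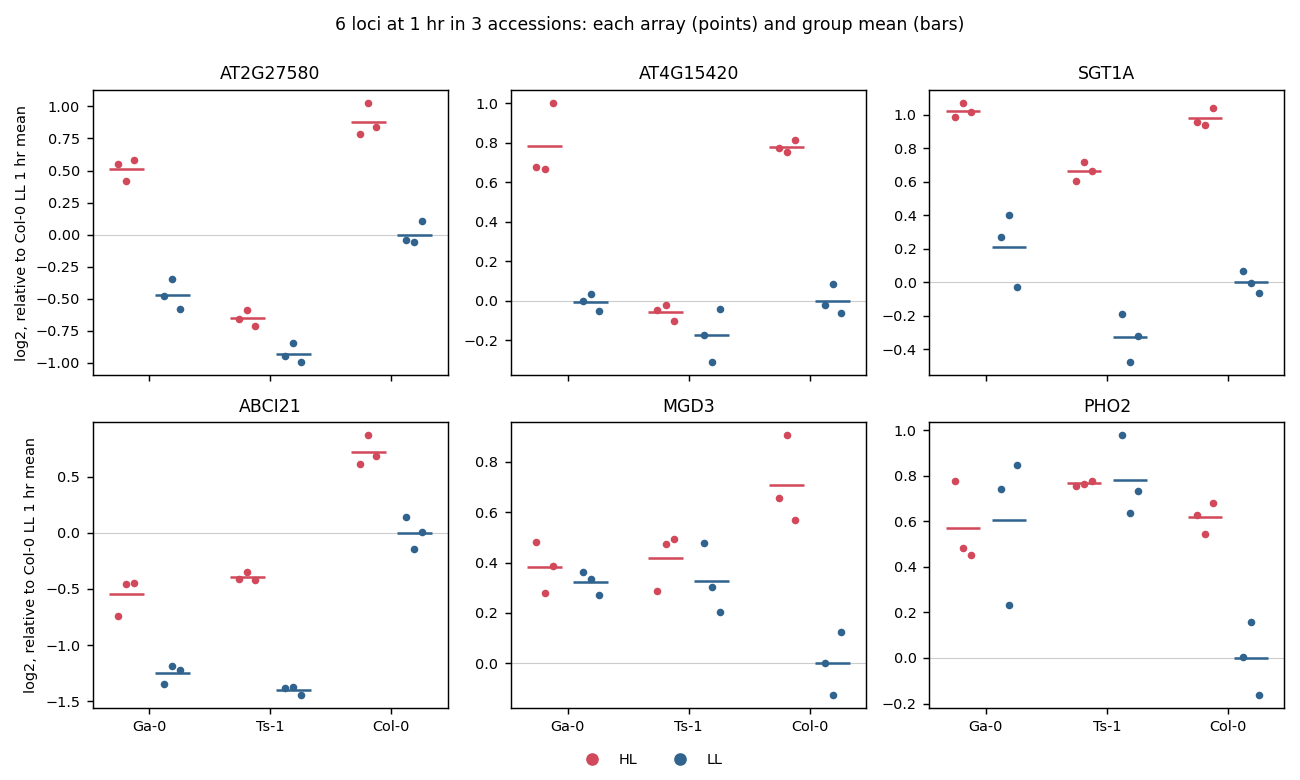
Log2 levels of 6 of the loci at 1 hr in Ga-0, Ts-1 and Col-0, relative to the Col-0 LL mean; points are arrays (HL in red to the left of LL in blue) and bars are means of 3. AT2G27580 and AT4G15420 are far higher in HL than in LL in Ga-0 and less so in Ts-1, SGT1A and ABCI21 are higher in HL in every accession, and the HL and LL arrays of MGD3 and PHO2 overlap in Ga-0 and Ts-1.

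The 9 loci called in neither accession were RHS13, MGD3, NF-YA7, RCI3, AT2G14900, AT5G46490, PHO2, AT1G23710 and AT1G73890. MGD3 read 0.48, 0.28 and 0.39 in Ga-0 HL, against 0.36, 0.34 and 0.27 in Ga-0 LL. In Ts-1 it read 0.29, 0.47 and 0.49 in HL, against 0.48, 0.30 and 0.20 in LL. The groups overlapped in both accessions, with a change of 0.06 in Ga-0 (95% interval -0.11 to 0.23) and of 0.09 in Ts-1 (-0.08 to 0.26), intervals that end below the fold limit.

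PHO2 read 0.78, 0.48 and 0.45 in Ga-0 HL, against 0.74, 0.23 and 0.85 in Ga-0 LL. In Ts-1 it read 0.76, 0.77 and 0.78 in HL, against 0.98, 0.64 and 0.73 in LL. The groups overlapped, and the changes were -0.04 in Ga-0 (95% interval -0.28 to 0.21) and -0.02 in Ts-1 (-0.26 to 0.23). The LL level itself was above that of Col-0 by 0.61 in Ga-0 and 0.78 in Ts-1, so Ga-0 and Ts-1 stood in LL about where Col-0 stood in HL at 1 hr. The Col-0 LL arrays of the day before, which did not choose the loci, read 0.13, 0.04 and -0.05 for PHO2. For MGD3 the LL level was above that of Col-0 by 0.32 in Ga-0 and 0.33 in Ts-1. Differences between accessions can hold unequal match of the probes, which was not tested.

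For NF-YA7 Ga-0 gave a difference of 0.15 (95% interval -0.10 to 0.39) and Ts-1 one of 0.17 (-0.07 to 0.42), where HL and LL arrays were separated. AT5G46490 was at -1.47 in Ga-0 LL and -1.38 in Ts-1 LL, close to the placing limit, and HL differed from LL by 0.10 in Ga-0 and by -0.00 in Ts-1. AT1G73890 had separated arrays in both accessions, higher in HL by 0.24 in Ga-0 (95% interval 0.02 to 0.45, limma adjusted p = 0.245), while the Ts-1 difference was 0.31 (0.09 to 0.52, adjusted p = 0.0838). The AT1G23710 differences of 0.25 in Ga-0 and 0.24 in Ts-1 had intervals from -0.05 to 0.56 and from -0.07 to 0.54.

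RHS13 and RCI3 were not called in the other accessions. RHS13 differed by -0.20 ± 0.23 (SE) in Ga-0, while Ts-1 gave 0.02 ± 0.23, with errors that share the spread of all groups, the Col-0 HL arrays included. RCI3 read 0.06, 0.18 and -0.03 in Ga-0 HL, against 0.59, 0.20 and 0.53 in Ga-0 LL, so every HL array lay below every LL array, as for 8.94% of all loci. In Ts-1 it read -0.02, 0.61 and 0.15 in HL, against 0.03, 1.18 and 0.85 in LL. Its differences of -0.37 in Ga-0 and -0.44 in Ts-1 missed the threshold (limma adjusted p = 0.451 and 0.316), and without replicate 1 of Ts-1 LL the change was -0.77 (adjusted p = 0.0287). AT2G14900 differed by -0.02 ± 0.31 (SE) in Ga-0, while Ts-1 gave 0.34 ± 0.31, where its LL arrays read 0.12, 1.66 and 0.32, and both 95% intervals (-0.66 to 0.62 in Ga-0 and -0.31 to 0.98 in Ts-1) reach past 1.4-fold.

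In LL the level of 3 of the 24 loci differed between Ga-0 and Ts-1, each higher in Ga-0, against 5.44% of all loci in either direction and 2.77% higher in Ga-0. SGT1A was higher in Ga-0 LL by 0.54 ± 0.09 (SE, limma adjusted p = 4.93e-05), NF-YA7 by 0.50 ± 0.12 (adjusted p = 0.00288) and AT3G09440 by 0.50 ± 0.11 (adjusted p = 0.00131). The NF-YA7 arrays read 0.57, 0.36 and 0.63 in Ga-0 LL, against 0.07, -0.02 and -0.00 in Ts-1 LL, with no overlap. Without replicate 2 of Ga-0 LL, or without replicate 2 of Ts-1 LL, 1 of the 24 differed. AT2G27580, at 0.46 (95% interval 0.29 to 0.63), was under the fold limit. AT2G14900 went the other way, with Ga-0 minus Ts-1 in LL at -0.88 (95% interval -1.52 to -0.24). It was not called (limma adjusted p = 0.0561).

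Relatives of the named loci had unlike time courses in Col-0, a comparison drawn up after the values were seen. HSP81-2, another cytosolic HSP90, was at 1.04, 0.40 and 0.24 at 1, 3.5 and 25 hr, and Hsp81.4 at 0.14, 0.06 and 0.05. SGT1B, the close relative of SGT1A, was at 0.12, -0.10 and 0.10. AT-HSFB2B, the factor most like HSFB2A, was at 0.74, 0.56 and 0.07, so it was still higher in HL at 3.5 hr. MGD2, an enzyme of the same type as MGD3, was at 1.15, -0.28 and 0.12, and SPX2, a phosphate-sensing protein, was at 0.89, -0.27 and 0.15. These last 2 missed the window at 3.5 hr narrowly, on the side of lower levels in HL. In Ts-1 both rose, by 0.75 (MGD2, limma adjusted p = 1.84e-05) and 0.55 (SPX2, adjusted p = 9.18e-06), and in Ga-0 neither was called at 0.24 each. SPX1 was at -1.22, -0.01 and 0.09 in Col-0, though it rose in Ts-1 by 0.98 (limma adjusted p = 1.82e-04). HSP90.1 was at -0.37, 1.42 and -1.55 in Col-0. From these values alone, the direction of a change beyond 3.16-fold cannot be told. STZ (ZAT10) was at 1.66, 0.12 and 1.25, and RHL41 (ZAT12) at 1.31, -0.02 and 0.63. Other relatives looked up did not all rise. MGD1 was at -0.10, -0.40 and -0.18, SPX3 at 0.09, -0.02 and 0.15 and ZAT11 at 0.07, -0.10 and 0.17. HSC70-1 was at 0.26, 0.20 and 0.03 and Hsp70-2 at 1.07, 0.30 and 0.70.

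Gene lists taken by symbol held few of the 24. The 13 loci known by code only could enter a list only through a synonym, and the co-chaperone SGT1A has a symbol that the chaperone list does not cover. The list of heat shock proteins, heat stress factors and other chaperones had 85 measured loci and included HSP81-3 and HSFB2A. Of the 85, 17 were called up and 8 down in Ga-0, and 16 up and 10 down in Ts-1, with 12 up in both and a median change of 0.04 in each accession, against -0.00 over all loci. The direction of a change beyond 3.16-fold in that list cannot be told. The list of ZAT and related C2H2 zinc finger factors had 19 measured loci, of which ZAT6 was the only one among the 24. Of these 19, 2 rose and 1 fell in Ga-0 and 4 rose and 1 fell in Ts-1. The other lists held none.

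The labelled tissue, leaf or complete rosette, could not be checked by level. None of 18 markers of mesophyll, guard cells, phloem, xylem, trichomes, epidermis, flowers and roots was called by limma. Their differences ran between -0.35 and 0.10 in Ga-0, and between -0.44 and 0.25 in Ts-1. At an unadjusted p under 0.05 and with no fold limit, 2 of the 18 differed in Ga-0 and 4 in Ts-1. In Col-0, given without a test, the marker differences ran between -0.74 and 0.16 at 1 hr, between -0.71 and 0.98 at 3.5 hr and between -0.52 and 0.17 at 25 hr. At 1 hr all HL arrays were below all LL arrays for the trichome regulator TRY (-0.74) and for MYB60 (-0.33), a guard cell factor. The same held for FAMA of guard cells (-0.22) and AG of flowers (-0.15). GL2, the other trichome marker, was separated upward (0.15). At 3.5 hr HL was separated above LL for KAT1 (0.98), a potassium channel of guard cells, and APL of phloem (0.42). It was separated below LL for PDF1 (-0.71), an epidermal gene, MYB60 (-0.57), GL2 (-0.26) and ATML1 of epidermis (-0.18). The part of such markers in the values of the 24 loci was not tested. Array medians of centred values lay between -0.044 and 0.035.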

How the data were processed

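RNA of pooled complete rosettes was hybridized to Affymetrix AraGene 1.1ST arrays. The authors extracted the probe data with Expression Console, annotated probes by a Brainarray file and applied RMA (background correction, quantile normalization, summary per locus). The deposited values are RMA signal values of another form than usual, since only their digits remain and 1 of 918258 keeps a decimal point. The planned tests assumed this form. No genome build is used here, and symbols were taken from the TAIR10.1 annotation, in which 27241 loci were found.

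Digits were read as mantissas, replicate arrays were shifted by powers of 10 to lie nearest to each other, and groups at the smallest change (Python 3.11.15, pandas 2.3.3, numpy 2.4.6, scipy 1.17.1). The model for the log2 values of all 33 arrays came from limma 3.58.1 under R 4.3.3 (lmFit with 1 mean per group, contrasts, eBayes without trend), with 22 residual and 8.37 prior degrees of freedom and a median residual SD of 0.11. Calls needed an adjusted p below 0.05 (Benjamini-Hochberg over all loci) and 1.4-fold. Simulated data tested the placing, the rule and the model. The number of arrays limits the precision.

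The loci and the lists were chosen with earlier results of these data known. All 24 loci are named. Emphasis went to the 10 largest Col-0 changes, to the loci called up in both Ga-0 and Ts-1, to called differences between Ga-0 and Ts-1 and to loci at the limits, while relatives and the root hair list were picked after their values were seen. Alternatives covered the placing, the set of arrays fitted, a block for the replicate number, the fold and p limits, treat, centring, a robust fit, the width of the windows and each replicate left out. Levels of different genes, sequences and hybridization dates were not analysed here.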

Additional observations from a re-analysis of the deposited data

Results flagged for a closer look

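AT2G27580 and AT4G15420 responded differently in Ga-0 and Ts-1 by the test of the difference itself, with the Ga-0 response larger by 0.71 for AT2G27580 (limma adjusted p = 0.00113) and by 0.67 for AT4G15420 (adjusted p = 0.00227). For AT2G27580 the difference exceeded 1.4-fold with each Ga-0 or Ts-1 array left out in turn, and the same held for AT4G15420. With only the Ga-0 and Ts-1 arrays in the fit, AT4G15420 no longer passed the adjusted p limit. Neither locus was called by limma's treat, which tests against 1.4-fold. AT2G27580 had separated HL and LL arrays in Ga-0 and in Ts-1, and AT4G15420 only in Ga-0.

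RCI3 differed in opposite directions, with every Ga-0 HL array below every Ga-0 LL array (-0.37) and every Col-0 HL array above every Col-0 LL array (0.64). The Ga-0 difference did not pass (limma adjusted p = 0.451). The Col-0 separation was a condition of the choice and was narrow, with the lowest HL array at 0.192 and the highest LL array at 0.189, and without HL replicate 3 the Col-0 change was 0.41. The difference between the accessions was not tested, since the Col-0 arrays chose the locus. Of all loci, 8.94% had all Ga-0 HL arrays below all Ga-0 LL arrays. No group has 4 or more arrays, so single arrays were not screened for distance from their group.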

How the results depend on the processing

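The number of loci chosen was 24, and it depended on the limits. It was 31 with median-centred arrays, 8 with windows of 0.15, 60 with windows of 0.35 and 4 with a 1 hr change of 0.8 or more. Leaving out 1 Col-0 array gave 22 to 55, with 55 without HL replicate 1 and 42 without HL replicate 2 at 1 hr. With these sets of 8, 60 and 4 loci, 6, 26 and 3 rose in Ga-0, 4, 24 and 2 in Ts-1 and 3, 15 and 2 in both. In LL 1, 9 and 1 differed between Ga-0 and Ts-1, and with the set of 4 the response of 1 differed.

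Over the 24 loci, limma's treat, which tests against 1.4-fold, called 1 in Ga-0, 2 in Ts-1 and 0 in both. It called 0 for the difference in response and 0 in LL. The usual test at an unadjusted p under 0.05, with the 1.4-fold limit kept, gave 14, 10, 9, 2 and 4. By unadjusted p alone, 4 of the 24 differed in response. With the model restricted to the compared groups 14 rose in Ga-0, 10 in Ts-1 and 9 in both, and the response of 1 locus differed. With no fold limit 5 differed in LL. With 1 array left out, 12 to 14 rose in Ga-0, 9 to 11 in Ts-1 and 7 to 10 in both, the response of 2 differed throughout, and 1 to 4 differed in LL. These ranges include the 25 loci chosen without Col-0 HL replicate 3 at 1 hr, an alternative added after seeing the data, of which 12 rose in Ga-0. Median centring, robust empirical Bayes and placing closest to the Col-0 change left all 5 counts as they were. No value called in Ga-0 or Ts-1 changed sign. In Col-0 the RHS13 change was -0.69 without HL replicate 2 and 1.23 without HL replicate 1 at 1 hr, and it was the only one of the 24 to change sign without 1 array of that hour, an alternative added after seeing the data.

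The labels do not say that replicate numbers pair the samples. The 15 same-numbered pairs of HL and LL arrays had correlations of their deviations from -0.10 to 0.25, with 7 above 0.1, so the numbers were not used as pairs. In 12 of the 15 the HL array correlated best with its own number, a hint of pairing from the data and not from the design. With the replicate number as a block 14 loci rose in Ga-0, 10 in Ts-1 and 9 in both, 2 differed in response and 3 in LL. Changes beyond 3.16-fold cannot be seen at any setting.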
